A study of Mus musculus with 7 samples.

Results

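The regions described here are stretches of open chromatin that lie inside protein-coding genes, away from both gene ends, and that were called in some but not all of 7 ATAC-seq libraries. They were chosen by merging the peaks of all libraries that overlapped by at least 1 bp on chromosomes 1 to 19. A merged region was kept where 2 to 6 libraries had a peak in it, where it touched the span of a protein-coding gene, and where it lay more than 1 kb from every gene end. This gave 3924 regions of 24734 on those chromosomes, and of 11536 that 2 to 6 libraries shared. Because the members were selected on the number of calling libraries, that number and the peak strength that goes with it are given as a description. A further 2294 shared regions lay at gene ends and 5318 lay outside genes.

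ATAC-seq uses a transposase that inserts sequencing adapters into accessible DNA, so that a peak marks a stretch where nucleosomes left the DNA open. Inside genes, open stretches away from the ends are often enhancers, insulator sites or internal promoters, and enhancers of developmental genes commonly lie in the introns of long genes. L3mbtl3 encodes a chromatin reader with malignant brain tumour (MBT) domains, which bind methylated lysines on histones and other proteins.

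The 4 knockout (KO) libraries came from L3mbtl3 -/- embryos and the 3 wild-type (WT) libraries from embryos of wild-type genotype. All were of the CD-1 strain, at E14.5 in the titles and embryonic day 14 in the age label. In both genotypes the cells were neural progenitors of the dorsal telencephalon, the future cerebral cortex, sorted for CD15, a surface carbohydrate of stem and progenitor cells. The labels do not say which exons the null allele lacks, nor whether each library came from a separate embryo, so the p-values measure the spread between these libraries, which may be technical.

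Genomic sequence was used here for annotated gene starts alone, so the sequences shown are those of members that sit on such a start within a larger gene span. Of the 3924 members, 252 (6.42%) overlapped a RefSeq promoter window, which runs from 250 bases before to 50 bases after a start, and 228 (5.81%) overlapped a window of the gene that hosts them, as an alternative promoter would. RefSeq windows were at hand for 1606 of the 2085 host genes (77.0%), so these counts are minima and a comparison over all host genes would be void. The 5 windows below were covered in full by members called in 6 libraries, and the Rgs8 window belongs to a member called in all 3 WT and no KO libraries. The sequences are the 250 bases before the start, 5′ to 3′ on the gene's strand, from RefSeq GRCm38.p6, and capitals mark CG dinucleotides, which cluster at CpG-island promoters.
Abhd18: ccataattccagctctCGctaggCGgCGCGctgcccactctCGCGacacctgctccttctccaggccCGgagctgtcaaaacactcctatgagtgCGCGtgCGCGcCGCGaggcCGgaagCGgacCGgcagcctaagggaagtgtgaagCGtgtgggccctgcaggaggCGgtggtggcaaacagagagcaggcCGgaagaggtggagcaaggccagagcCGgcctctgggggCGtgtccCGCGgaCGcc
Hint3: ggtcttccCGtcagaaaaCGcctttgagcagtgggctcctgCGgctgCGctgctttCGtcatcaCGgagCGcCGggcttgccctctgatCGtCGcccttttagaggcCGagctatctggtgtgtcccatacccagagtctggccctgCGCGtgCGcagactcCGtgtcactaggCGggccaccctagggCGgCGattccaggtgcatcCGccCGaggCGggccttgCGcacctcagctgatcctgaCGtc
Egf: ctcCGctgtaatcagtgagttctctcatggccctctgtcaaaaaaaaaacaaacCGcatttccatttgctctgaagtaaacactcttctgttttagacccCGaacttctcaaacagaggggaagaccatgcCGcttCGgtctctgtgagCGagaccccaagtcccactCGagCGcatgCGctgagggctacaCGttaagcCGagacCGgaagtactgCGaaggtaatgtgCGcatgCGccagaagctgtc
Ccdc77: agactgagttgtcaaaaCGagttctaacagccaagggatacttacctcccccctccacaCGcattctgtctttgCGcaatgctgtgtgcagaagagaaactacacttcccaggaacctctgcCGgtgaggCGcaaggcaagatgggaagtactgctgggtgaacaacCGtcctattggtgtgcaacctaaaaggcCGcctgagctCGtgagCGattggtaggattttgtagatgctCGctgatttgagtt
Gm7072: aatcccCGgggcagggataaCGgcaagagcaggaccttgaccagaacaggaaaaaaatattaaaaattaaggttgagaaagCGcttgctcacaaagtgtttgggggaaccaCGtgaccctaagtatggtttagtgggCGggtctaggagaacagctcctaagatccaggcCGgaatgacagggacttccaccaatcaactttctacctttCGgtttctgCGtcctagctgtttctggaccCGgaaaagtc
Rgs8: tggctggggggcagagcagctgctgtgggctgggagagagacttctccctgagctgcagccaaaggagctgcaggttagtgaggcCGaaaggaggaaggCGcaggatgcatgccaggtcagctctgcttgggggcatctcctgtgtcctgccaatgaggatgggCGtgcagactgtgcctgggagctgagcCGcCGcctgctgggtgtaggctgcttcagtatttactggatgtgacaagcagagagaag

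The Abhd18 window (chr3:40894009-40894258, plus strand) held 24 CG dinucleotides and 68.0% G+C, and the Hint3 window (chr10:30618367-30618616, minus strand) held 23 and 65.2%. Egf, which encodes epidermal growth factor, had 15 in its window (chr3:129725087-129725336, minus strand), Ccdc77 had 10 (chr6:120357368-120357617, minus strand) and Gm7072 had 9 (chr17:22314843-22315092, minus strand). The Rgs8 window (chr1:153665423-153665672, plus strand), of which the member covered 112 of 250 bases, held 5 CG dinucleotides at 60.8% G+C. Its ratio of observed to expected CG was 0.234, against 0.600 to 0.895 in the other 5. Abhd18, Hint3, Egf and Gm7072 were called in 3 KO and 3 WT libraries, and Ccdc77 in 4 KO and 2 WT libraries.

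Over all windows, those that members touched were richer in CG. The 301 windows touched by members had a median G+C of 56.0% and a median ratio of observed to expected CG of 0.626. The medians were 51.2% and 0.291 in the 5885 untouched windows inside gene spans, over 1 kb from every end. Depth within the span was not matched. Over all 31365 windows on chromosomes 1 to 19 the medians were 52.4% and 0.379. Letters of the E-box, CANNTG, which proneural bHLH factors bind, were present in 58.5% of the touched windows, 70.9% of the untouched interior windows and 66.1% of all windows. The E-boxes CAGCTG or CAGATG, on either strand and both of them also CANNTG, were in 21.3%, 29.7% and 25.6%. The GC box GGGCGG, searched on both strands, was in 40.2%, 24.7% and 33.0%. Thus the touched windows were richer in CG and GC boxes and poorer in E-box letters than the untouched ones; a match to letters shows no binding. These are descriptions of overlapping windows that share sequence composition, and no test was made.

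Among 1005 RefSeq miRNA hairpins, 1 was overlapped by a member: Mir449c, inside Cdc20b on chromosome 13. The miR-449 miRNAs share their seed with miR-34 and are known for their part in making multiciliated cells. The member (chr13:113036031-113036152) covered 61 bases of the hairpin (chr13:113035983-113036091, plus strand) and was called in KO4 and WT3. Its mature products are shown because this hairpin was the one touched among those checked, with the seed, bases 2 to 8, in capitals.
mmu-miR-449c-5p: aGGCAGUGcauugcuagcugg
mmu-miR-449c-3p: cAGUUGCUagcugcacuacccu

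The peak lists differed widely in length, from 3366 to 17362 peaks, which has to be kept in mind for every count that follows. Members called numbered 2350, 1696, 623 and 3214 in KO libraries 1 to 4 and 1767, 2591 and 1311 in WT libraries 1 to 3, in the same order as the lengths of the lists. KO3, with the shortest list, called 15.9% of the members, and KO4, with the longest, called 81.9%. The lists hold no read counts, so depth is unknown. At L3mbtl3 itself no member was present, and 2 regions inside its span were each called in 1 library, which does not test the deletion. The cell type could be checked at gene ends alone. Of 22 progenitor markers 10 had an end peak in at least 1 library, against 24.1% of all genes, while the defining markers Pax6, Emx1, Lhx2, Nes and Vim had none in any library. None of 28 glial, endothelial or blood markers had one, and 2 of 10 meningeal markers had. Of 15 ventral telencephalon and interneuron markers 4 had one (26.7%), all of them in KO4, and of 18 excitatory neuron factors 5 had one (27.8%).

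**Figure D1:**
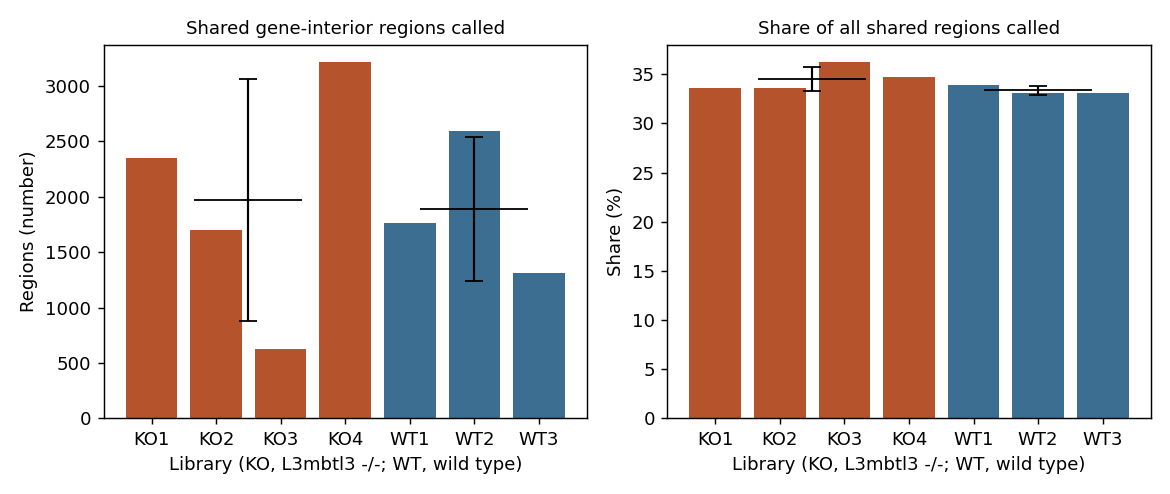
Members called in each library (left, number of regions) and their share of all shared regions called there (right, %), with the mean and SD of each genotype in black. KO3 and KO4 hold the lowest and the highest number, and the shares lie within 33.1% to 36.2%.

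Members made up a similar share of the shared regions in every library. The share was 33.6%, 33.6%, 36.2% and 34.7% in KO libraries 1 to 4, against 33.9%, 33.1% and 33.1% in WT libraries 1 to 3. KO3 and KO4 lay above all WT libraries, and WT1 lay above the other KO libraries. The mean was 34.5% ± 1.24 in KO and 33.4% ± 0.447 in WT libraries (SD, n = 4 and 3), which differ by 1.16 points (two-sided exact permutation p = 0.171, 0.343 after Benjamini-Hochberg adjustment over 6 tests). With the peaks limited to a −log10 q of at least 2 the difference was 1.83 points at an exact permutation p of 0.0286, the smallest that 35 assignments of 7 libraries allow. That p was not adjusted, and the lowest exact permutation p under the other alternatives was 0.133, without WT1. Without KO3 the difference was 0.554 points (exact permutation p = 0.4).

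The number of members called averaged 1971 ± 1093 in KO and 1890 ± 649 in WT libraries (SD, n = 4 and 3), so that the difference of 81.1 regions was below either SD (exact permutation p = 0.971). Without KO3 this difference was 518 regions and without KO4 it was −249. The median width of the peaks in members was 163, 156, 127 and 182.5 bp in KO1 to KO4, against 156, 170 and 137 bp in WT1 to WT3, a difference in means of 2.79 bp (exact permutation p = 0.886). The authors' fold enrichment had medians of 4.72, 4.71, 4.20 and 4.66 in the KO lists and of 4.58, 4.65 and 4.31 in the WT lists. A typical member was therefore a short and modest peak in both genotypes.

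Among the members, 1394 were called in 2 libraries, 852 in 3, 666 in 4, 528 in 5 and 484 in 6. Just outside the limits, 4358 regions inside genes were called in 1 library and 427 in all 7. Length and strength followed the number of callers. A merged region spans all of its peaks, so in part its length grows with added callers by construction. The median length was 123 bp for 1 caller, 188 bp for 2, 353 bp for 6 and 412 bp for 7. Strength is given as the percentile of a peak's −log10 q within its own list, averaged over the calling libraries, and its medians were 26.5, 38.5, 61.1 and 72.4 in the same order. The peaks of 3765 members (95.9%) all shared at least 1 base, so most members are 1 site and not a chain of neighbours.

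Values near the distance limit were as follows. The 74 members within 500 bp beyond the limit of 1 kb had a median percentile of 45.2, and the 117 shared regions within 500 bp short of it had 47.0. The median member lay 49.6 kb from the nearest end. Between the nearer end and the middle of the gene, members were spread evenly, with 766 to 786 in each of 5 equal parts of that distance among the 3877 that touched 1 gene. Of 427 regions called in all 7 libraries, 67 lay in the part nearest the end and 94 in the part nearest the middle.

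The members' host genes were long. The 3924 members touched 2085 of 20665 protein-coding genes (10.1%), whose median span was 134.6 kb, against 14.8 kb in the other genes. A single member was found in 1315 hosts (63.1%), at least 3 in 400 and at least 10 in 24. A peak within 1 kb of an end was called in at least 1 library for 623 hosts (29.9%), against 23.4% of the other genes. Within span classes the order differed: it was 14.2% of hosts and 19.8% of other genes up to 20 kb, 22.7% and 28.9% at 20 to 50 kb, 30.6% and 29.4% at 50 to 100 kb, 31.3% and 26.7% at 100 to 200 kb, 33.5% and 22.7% at 200 to 500 kb, and 36.1% and 7.14% over 500 kb. Over 500 kb, 202 of 216 genes were hosts, so the 7.14% rests on few genes. In all, 1462 hosts had open chromatin called inside and at neither end.

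Members were also denser in longer genes. Genes of up to 20 kb held 1.62 members per Mb of span, those of 20 to 50 kb 2.07, 50 to 100 kb 2.70, 100 to 200 kb 4.13, 200 to 500 kb 5.47 and over 500 kb 5.93. The value for all genes was 3.98 per Mb. In part the rule sets this order, since a stretch of 1 kb at each end is barred and takes up more of a short gene. Of the 216 genes over 500 kb, 202 (93.5%) hosted a member, and 1071 members (27.3%) lay in them. Neighbouring members of a host stood a median of 52.4 kb apart, and 79 of 1848 such gaps (4.27%) were at most 5 kb.

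The host genes with the most members were very long. Macrod2, which encodes an ADP-ribose hydrolase, held 20 members in 1998 kb. Lsamp, an adhesion molecule of the limbic system, held 18. Ptprd, a receptor phosphatase that organises synapses, held 16. The neurexin-like Cntnap2 and Robo2, a receptor for the axon repellent Slit, held 14 each. Astn2, needed for migration of neurons along glia, the synaptic adhesion gene Nrxn3, the cGMP-dependent kinase gene Prkg1 and the teneurin gene Tenm2 held 13 each, and the contactin gene Cntn5 held 12. Without KO4, Tenm2 held 7. These 10 genes span 1024 to 2271 kb, and 8 of them also held regions called in all 7 libraries. No end peak was called in any library for 6 of the 10. In Macrod2, the KO libraries called 11, 14, 4 and 15 of the 20 and the WT libraries 10, 14 and 7.

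Per length, the ranking was headed by genes of moderate size. Ranking took hosts with at least 3 members, which leaves out short genes with 1 or 2 members, and the median of the ranked hosts was 1.05 members per 100 kb, with a range of 0.262 to 5.53. Etv1, an ETS transcription factor that responds to FGF signalling, stood first with 5 members in 90.4 kb, or 5.53 per 100 kb, and with 3 members when KO4 was left out. Cpe, carboxypeptidase E, which trims prohormones and neuropeptides, followed with 5 in 100.6 kb, or 4.97. Next came Tmem196 at 3.99, the bile acid receptor gene Nr1h4 at 3.78, the apoptosis regulator Pawr at 3.65, the nuclear envelope gene Nemp2 at 3.60 and the androglobin gene Adgb at 3.59. Hmga2, a chromatin protein that keeps fetal neural stem cells self-renewing, had 3.47. Sybu, which links cargo to kinesin in axons, had 3.44, the rhomboid protease gene Rhbdd1 3.10, the mitotic kinase gene Nek7 2.94, Ralgapa2, which encodes a Ral GTPase-activating subunit, 2.94, Dnajc5b 2.93, the oxysterol hydroxylase gene Cyp7b1 2.91 and Mb21d2 2.90. The next gene stood at 2.84, so the end of this ranking marks no gap.

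**Figure D2:**
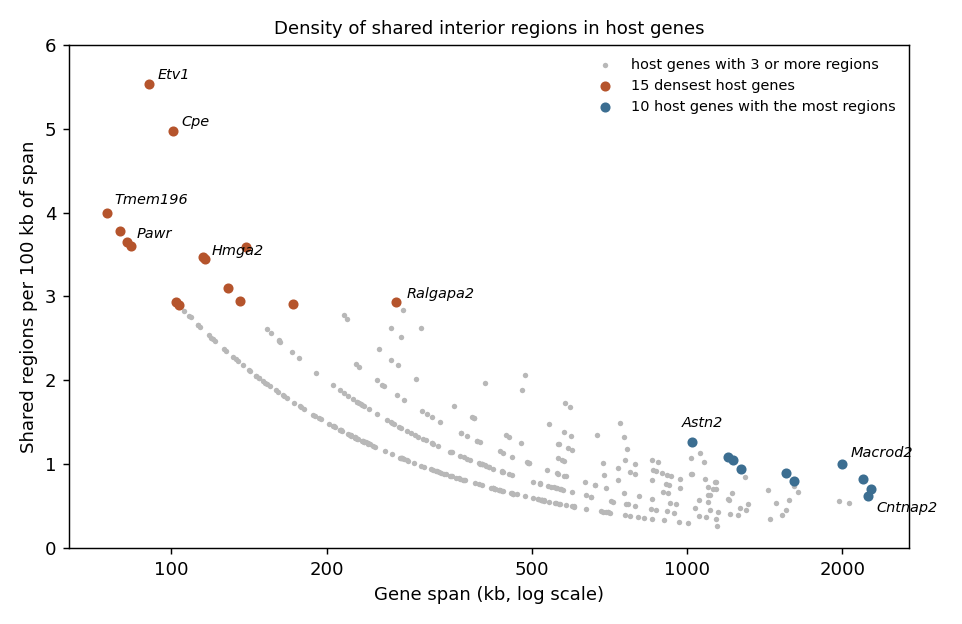
Members per 100 kb of gene span (vertical axis) against span in kb (horizontal axis, log scale) for the 400 host genes with at least 3 members. Each gray line of points is genes with the same number of members; Etv1 at 5.53 and Cpe at 4.97 stand above the rest, and the 10 genes with the most members lie at the right, at 1024 to 2271 kb.

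The 15 densest genes held 62 members, and calling in them followed the length of the lists. KO1 to KO4 called 41, 28, 13 and 49 of these, and WT1 to WT3 called 31, 43 and 16. None of the 15 held a region called in all 7 libraries, and 8 had no end peak in any library. Numbers of 3 to 8 members per gene are small, and single libraries decided some of them. Without KO4, Tmem196 held 1 member, and Hmga2 and Nek7 held 2 each. Without WT2, Nr1h4 held 1, and without KO2, Ralgapa2 held 5. Leaving out any other single library changed no count of these 15 genes by over 1.5 times.

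In Etv1 (chr12:38780082-38870483), the 5 members differed in which libraries called them. The first, 8653 bp from the gene's start (chr12:38788735-38788889), was called in WT1, WT2 and WT3 at folds of 4.60, 4.58 and 4.41 and in no KO library. The strongest, at a percentile of 84.3 (chr12:38843881-38844054), was called in KO4 at a fold of 5.39 and in WT2 at 6.13. Another (chr12:38854437-38854571), at 80.2, was called in KO1, KO2, KO4 and WT1 at 5.37, 5.40, 5.62 and 5.80. In all, KO1 to KO4 called 3, 2, 0 and 3 of the 5, and WT1 to WT3 called 3, 2 and 1.

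In Hmga2 (chr10:120361268-120476469), KO1 to KO4 called 3, 1, 2 and 4 of the 4 members and WT1 to WT3 called 1, 2 and 0. The member nearest the 3′ end (chr10:120377420-120377732) was called in all 4 KO libraries at folds of 4.90, 4.22, 4.51 and 5.04, and in WT1 and WT2 at 4.31 and 4.25. In Pawr, KO1, KO2 and KO4 called all 3 members, KO3 called 0, WT1 and WT2 called 1 each and WT3 called 0. In Cpe, KO libraries called 4, 3, 0 and 5 of the 5 and WT libraries called 3, 3 and 0. In each of these genes the genotypes overlapped, because KO3 or KO2 called no more than a WT library did. The genes were chosen for density, and no test by genotype was made on them.

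**Figure D3:**
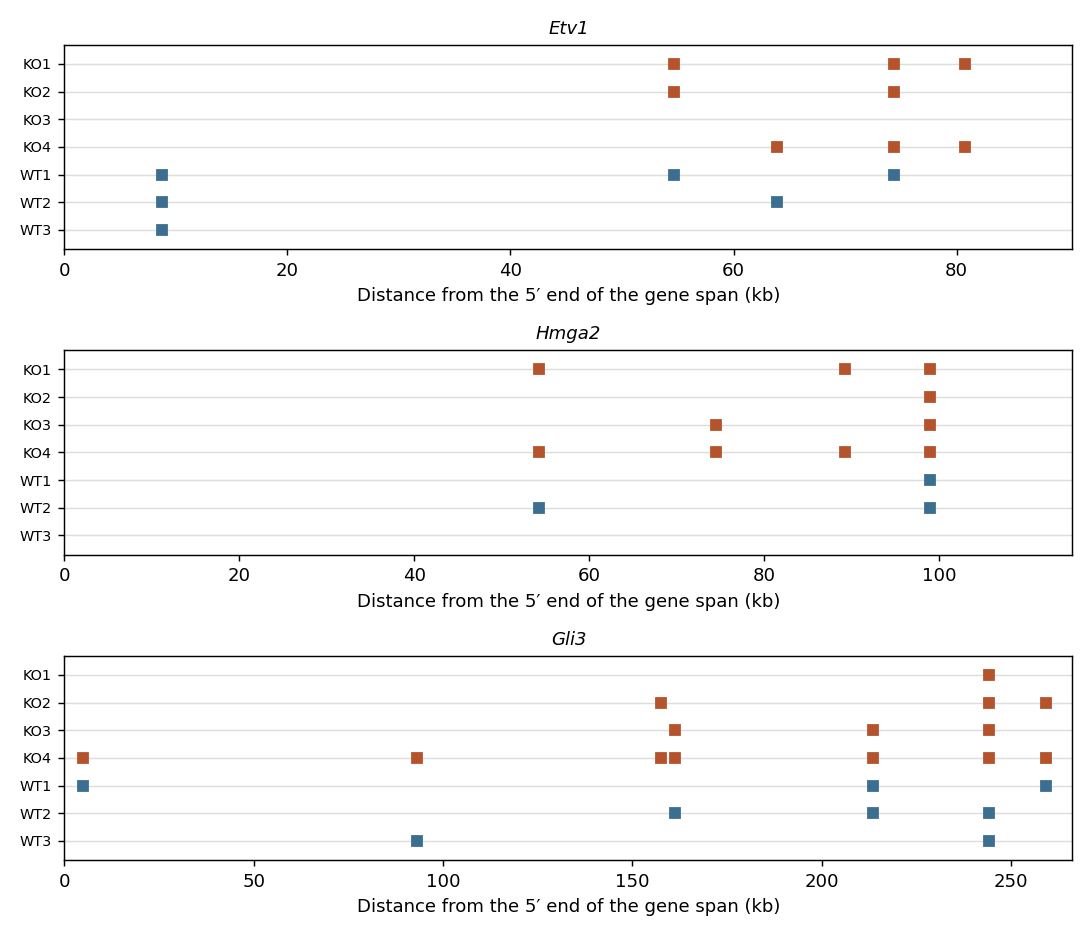
Members of Etv1, Hmga2 and Gli3 by distance in kb from the 5′ end of the gene span (horizontal axis) and by library (rows); a square marks a call, orange in KO and blue in WT libraries, and is wider than the region itself. In Etv1, the member nearest the 5′ end was called in all 3 WT and no KO libraries; in Gli3, KO4 called all 7 members.

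Gene lists for the tissue showed where members lay among genes of known roles, each beside the 3.98 per Mb and the 10.1% of hosts over all genes. Of 22 factors of radial glia, the cortical stem cells, 8 were hosts, with 27 members at 10.8 per Mb. Zbtb20 held 8, Gli3, the transcription factor that patterns the dorsal telencephalon downstream of Hedgehog, held 7, and Nfib, which promotes gliogenesis, held 4. Their spans are 759, 266 and 217 kb, in classes where all genes together held 5.93, 5.47 and 5.47 per Mb. The median over the 22 factors was 0 members per gene, so the density of this list comes from few long genes. KO libraries called 11, 8, 8 and 26 of the 27 and WT libraries 11, 15 and 8. In Gli3 (chr13:15463723-15730026) the member called most often (chr13:15707640-15708098) had folds of 5.70, 4.74, 4.39 and 5.14 in KO1 to KO4 and of 5.54 and 4.97 in WT2 and WT3.

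Axon guidance genes, which steer growing axons, were hosts in 18 of 22 cases, with 92 members at 9.50 per Mb and a median of 3 per gene. Their median span of 345 kb falls in the class where all genes together held 5.47 per Mb. Beside Robo2 the axon guidance hosts included Robo1 with 11 and the repellent Sema3a with 9. Synaptic adhesion and scaffold genes were hosts in 21 of 23 cases, with 180 members at 6.64 per Mb and a median of 7 per gene, while the median over all genes was 0. The median span of the synaptic genes, 1098 kb, puts them in the longest class, where all genes together held 5.93 per Mb. KO libraries called 61, 49, 13 and 73 of the members in axon guidance genes and WT libraries 39, 64 and 34.

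Of 18 excitatory neuron factors, 9 were hosts with 27 members at 6.77 per Mb, led by Foxp2 with 8, Sox5 with 5 and Foxp1 with 3. The median was 0.5 members per gene. Of 20 Notch and Wnt pathway genes, 9 were hosts with 15 members at 7.27 per Mb and a median of 0 per gene. The Wnt effector gene Tcf7l1 held 4, the Wnt co-receptor gene Lrp6 and the Notch coactivator gene Maml2 held 2 each. A Tcf7l1 member (chr6:72645417-72645712) had folds of 5.62, 6.43, 4.38 and 6.29 in KO1 to KO4 and of 5.93 and 4.73 in WT2 and WT3.

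Proneural and neuronal bHLH genes, most of which are short, were hosts in 2 of 14 cases, with 3 members at 4.42 per Mb. The hosts were the E proteins Tcf4 with 2 and Tcf12 with 1, which pair with proneural factors. KO libraries called 3, 1, 2 and 3 of the 3, and WT libraries called 0, 0 and 1, so that KO2 and WT3 were level. The Tcf12 member (chr9:71879605-71879847) had folds of 5.53, 3.75 and 3.58 in KO1, KO3 and KO4. Of 37 genes of Polycomb complexes and MBT proteins, 6 were hosts with 11 members at 3.10 per Mb. Auts2 held 5, Jarid2 2 and Aebp2 1, all of them known partners of Polycomb complexes. KO libraries called 7, 5, 1 and 9 of these and WT libraries 7, 4 and 3.

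Among markers of other cells, members were few in number, and densities are given beside 3.98 per Mb over all genes. No member lay in any of 10 endothelial and pericyte or 10 meningeal markers. Of 9 microglia and blood markers, 2 were hosts, P2ry12 and Ptprc with 1 each (22.2% hosts, 6.64 per Mb), and of 9 glial markers, Aldh1l1 and Aqp4 held 1 each (22.2% hosts, 6.63 per Mb). Of 15 markers of the ventral telencephalon and of interneurons, the single host was Erbb4, a neuregulin receptor gene of 1077 kb, with 11 members, which gave the list 8.54 per Mb. These densities lie above that of all genes, from 2, 2 and 11 members. KO libraries called 6, 7, 1 and 8 of the 11 Erbb4 members and WT libraries 5, 10 and 3. The part of other cell types in any member was not tested.

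Calling by genotype was mostly mixed. Both genotypes called 3277 of the 3924 members (83.5%), only KO libraries called 528 (13.5%) and only WT libraries called 119 (3.03%). Over all 11536 shared regions the last 2 shares were 12.8% and 3.18%; with 4 KO and 3 WT libraries, and with KO4 the longest list, these shares are not balanced between the genotypes. A higher share of KO than of WT libraries called 1815 members (46.3%), against 44.9% of all shared regions. A lower share of KO libraries called 2109 (53.7%), against 55.1%. The share of KO libraries calling a member minus the share of WT libraries had a median of −8.33 percentage points, as it had over all shared regions. With 4 KO and 3 WT libraries, equal numbers of callers count as a lower share of KO libraries. Such members numbered 869 with 1 caller of each genotype, 352 with 2 and 339 with 3. The median is the value of a member with 1 caller of each, so it cannot show whether calling leaned to a genotype. The shares were near those over all shared regions, and the unequal lists leave a lean by genotype undecided.

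**Figure D4:**
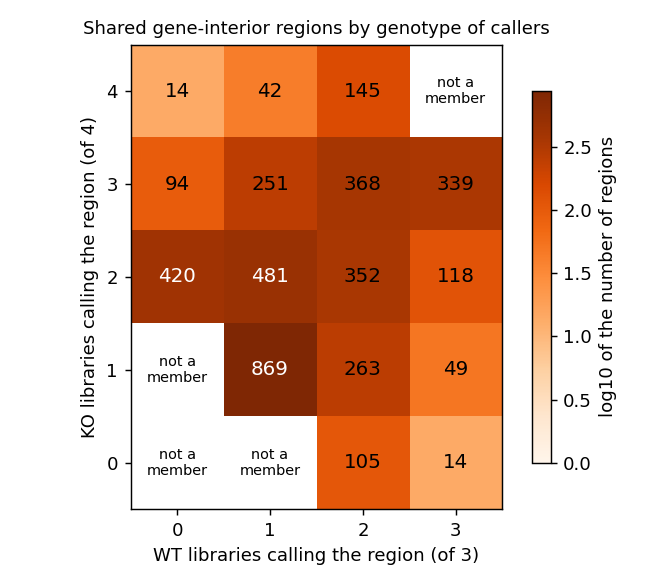
Number of members by how many KO (vertical axis) and WT (horizontal axis) libraries called them, with color on a log10 scale. The corners hold 14 members called in all 4 KO and no WT libraries and 14 called in all 3 WT and no KO libraries; the fullest cell, 869, is 1 KO with 1 WT library.

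Complete separation was rare. The 14 members called in all 4 KO and no WT libraries were 0.357% of all members, and over all shared regions the background was 0.234%. The 14 members called in all 3 WT and no KO libraries were also 0.357%, with a background of 0.26%. Fisher's exact test on a single region can reach 0.0286 at the smallest. After adjustment over all shared regions none could pass unless most of them were separated, so that none passed decides nothing. These 28 members are those with an unadjusted Fisher p below 0.05, because complete separation alone reaches it. Leaving out 1 library moved the counts by over 1.5 times in most cases. The criterion is then looser, so more members can meet it, and the rise does not show that the counts lean on single libraries. Of the 14 and 14, 13 and 14 kept their separation without KO2 and 14 and 13 without WT3. Without any other single library all of them kept it. This was nearly set in advance, since a separated member still meets the looser criterion unless its merged region changes, so it shows no stability. Members called in all remaining KO and no remaining WT libraries numbered 36 without KO2, 77 without KO3, 25 without WT1 and 39 without WT2. Those called in all remaining WT and no remaining KO libraries numbered 24 without KO1, 49 without KO4, 46 without WT1, 30 without WT2 and 70 without WT3. With every list shortened to the 3366 strongest peaks, none of the 28 kept its separation, and 8 and 10 other members were separated.

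The strongest member called in all KO and no WT libraries lay in Syt1, which senses calcium when synaptic vesicles fuse (chr10:108769443-108769645), at a percentile of 76.8 and folds of 5.28, 5.13, 5.64 and 5.44. Next was Zbtb20, a zinc finger gene of hippocampal and progenitor identity (chr16:42921506-42921804), at 63.9 and folds of 4.09, 5.72, 4.90 and 6.22. Lpp, a focal adhesion gene (chr16:24909020-24909170), had 62.3. Sema5a, a guidance cue (chr15:32259544-32260056), had 60.3. The scaffold gene Dlgap1 (chr17:70429847-70429985) had 58.1, the cAMP phosphodiesterase gene Pde4d (chr13:108998882-108999096) 51.4 and the calcium channel gene Cacna1e (chr1:154500533-154500782) 47.8. Rnf217, Stk39 and Lmo3 followed at 42.2, 39.2 and 35.2, and the remaining 4, in Ror1, Lsamp, Rgs7 and Opcml, went down to 24.7.

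Among members called in all WT and no KO libraries, the strongest lay in Pitrm1, a mitochondrial peptidase gene (chr13:6557961-6558176), at a percentile of 68.0 and folds of 6.22, 5.04 and 4.12. Slf1, a DNA repair gene (chr13:77048596-77048816), had 65.8 and folds of 4.96, 5.09 and 5.04. Csmd1, a complement regulator gene (chr8:17095780-17096178), had 56.8, and the Etv1 member described above had 48.4. Cdk14, Tspan15, Sgo1 and D430041D05Rik had 42.6, 42.4, 42.0 and 41.6. Rgs8, a regulator of G protein signalling (chr1:153665299-153665534), had 36.4 and folds of 4.39, 4.43 and 4.20, at the annotated start printed above. Abca13 had 34.3, and the remaining 4, in Thsd7b, Ptprt, Itpkb and Gpm6a, went down to 8.97. Of the WT-called members 1 of 14 lay at an annotated start, and of the KO-called members 0 of 14 did.

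At the other limit of the rule, members called in 6 libraries mostly lacked the shortest list. Of 484 such members, 291 (60.1%) were missing from KO3, 102 (21.1%) from WT3, 34 from WT1, 31 from KO2, 15 from KO1, 9 from WT2 and 2 from KO4. The strongest lay in Zfp804b (chr5:7276825-7277300), with folds of 12.2, 12.7 and 15.6 in KO1, KO2 and KO4 and of 9.47, 12.2 and 12.9 in WT1 to WT3. A member of 115 bp in Cdk5rap2, a centrosome gene mutated in human microcephaly, was next (chr4:70378125-70378239), with 10.6, 7.30 and 13.7 in the same KO libraries and 12.7, 11.8 and 10.03 in the WT libraries. Both were absent from KO3, though they stood at percentiles of 99.6 and 99.0 elsewhere. The next, in Acss3, Il1rap, Gm7072, Tmc1, Kifap3, Elmo1, Ralyl and St7, had percentiles of 95.5 to 92.0, and those in Gm7072, Kifap3 and St7 lay at annotated starts.

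Of 1394 members called in 2 libraries, 937 (67.2%) included KO4, 582 (41.8%) WT2 and 86 (6.17%) KO3, and the commonest pair was KO4 with WT2, at 319. The share of members common to a pair of libraries varied widely within and across genotypes. Members called by both libraries of a pair, as a share of those called by either, ran from 14.46% to 52.5% over 6 KO pairs (median 27.9%). The 12 pairs of a KO with a WT library had 10.8% to 57.3% (median 35.3%), and the 3 WT pairs had 26.6% to 41.3% (median 28.8%). Pairs share libraries, so no test was made.

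Compared with shared regions elsewhere, members were weaker than those at gene ends. The median percentile of member peaks was 46.7, 44.5, 40.3 and 58.4 in KO1 to KO4 and 44.1, 47.5 and 48.1 in WT1 to WT3. At gene ends it was 53.5, 47.7, 45.6 and 68.1 in the KO and 51.6, 57.0 and 53.7 in the WT libraries. The members were lower in 7 of 7 libraries, with a mean difference of −6.79 points (47.1 ± 5.65 and 53.9 ± 7.36, SD, n = 7), at the smallest p that an exact sign-flip permutation test over 7 libraries allows, 0.0156. Adjusted over the 6 tests, p was 0.0938, so the difference missed the threshold after adjustment. Against shared regions outside genes members differed by −1.62 points and were lower in 6 of 7 libraries (exact sign-flip permutation p = 0.0781, adjusted 0.234), with KO4 the other way. Without KO4 the difference was −1.78 points (exact sign-flip permutation p = 0.0313, the smallest that 6 libraries allow). With all 7 libraries it was −2.60 points at a −log10 q of at least 2 (exact sign-flip permutation p = 0.0469). Where peaks had to cover 50% of a region it was −3.01 points (exact sign-flip permutation p = 0.0313). The side of the threshold thus depends on that library and on the setting, and these p-values were not adjusted.

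**Figure D5:**
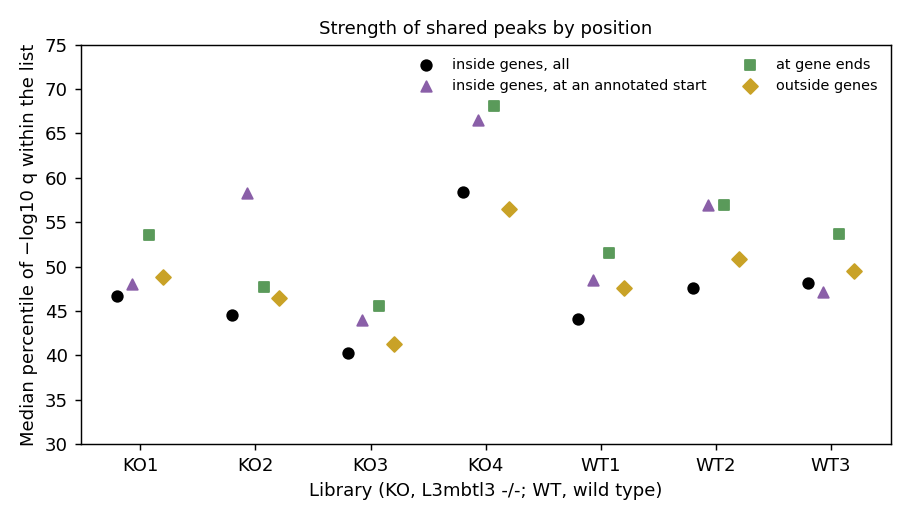
Median percentile of −log10 q within each library's own list (vertical axis, shown from 30 to 75) for peaks in members, in members at an annotated start, in shared regions at gene ends and in shared regions outside genes, by library (horizontal axis). Members lie below gene-end regions in all 7 libraries.

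Between genotypes, the percentile of member peaks averaged 47.5 ± 7.76 in KO and 46.6 ± 2.18 in WT libraries (SD, n = 4 and 3), a difference of 0.910 points (exact permutation p = 0.914). Its sign changed with the libraries used, at −4.04 points without KO4, −0.257 without WT1 and 4.70 without KO3.

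Members at annotated starts were compared with the other members after the data were seen. Their peaks had median percentiles of 48.1, 58.3, 44.0 and 66.5 in KO1 to KO4 and of 48.5, 57.0 and 47.2 in WT1 to WT3, higher than the other members in 6 of 7 libraries by 6.11 points on average (52.8 ± 8.01 and 46.7 ± 5.68, SD, n = 7, exact sign-flip permutation p = 0.0313). WT3 went the other way. Such members made up 5.74%, 5.66%, 5.46% and 6.60% of the members called in KO1 to KO4 and 6.73%, 7.18% and 6.64% of those called in WT1 to WT3. All KO libraries lay below all WT libraries, with a difference of −0.985 percentage points (5.86% ± 0.502 and 6.85% ± 0.289, SD, n = 4 and 3), and the exact permutation p was 0.0571. Neither p was adjusted, and both are of comparisons chosen with the values in view.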

How the data were processed

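ATAC-seq libraries were made with Nextera reagents in 7 samples, per the labels. Tools named in the submitters' processing notes are MACS2, Bowtie2 2.3.5.1, CASAVA 1.9, deepTools 3.3.0, SAMtools 1.9 and FastQC 0.11.8, with build GRCm38. Their roles, settings and any correction for transposase offset are not given in the sources. Heterozygous cells are named in the shared growth protocol, yet the genotype labels hold none. Broad peaks were deposited as separate lists, 1 per library. For each peak the authors' lists give a fold enrichment (a ratio over the caller's background), a score and −log10 p, both not used, and −log10 q, used as a rank within its list. The smallest deposited −log10 q was 1.30 to 1.32. The lists give no depth, so precision per peak is unknown.

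Peaks were merged where they shared 1 bp and set against spans of 20665 protein-coding genes on chromosomes 1 to 19 (RefSeq GRCm38.p6), with Python 3.11.15, pandas 2.3.3, NumPy 2.4.6 and SciPy 1.17.1. Without transcript models or a genome, exons, introns and region sequences were not analysed here. Coordinates count from 1. Genotypes were compared with exact permutation tests over 35 assignments of the libraries, classes of regions with exact sign flips over 7, and single regions with Fisher's exact test and Benjamini-Hochberg adjustment. The scripts were tested on simulated data. Named genes were L3mbtl3, the 15 densest hosts with at least 3 members, the 10 hosts with most members, up to 10 fully separated members per direction, the 10 strongest members called in 6 libraries, and up to 3 hosts per list. Mir449c, the other members of the separated sets and the printed sequences were chosen after values were seen. The members and the 12 lists, of 209 genes, were chosen with earlier results of these data known.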

Additional observations from a re-analysis of the deposited data

How the results depend on the processing

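The alternatives were ends over 2.5 kb away, 3 to 5 callers, a −log10 q of at least 2, lists of equal length (3366 peaks), a call only where peaks cover 50% of a region, merging within 500 bp, a replicate block, and leaving out each library. Members stayed weaker than shared gene-end regions under every one of these that was run, at −7.16 to −5.98 points.

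The difference in members called, KO minus WT, was −333 with the replicate block of KO and WT libraries 1 to 3, and −249 to 518 with 1 library left out. Same-numbered libraries had correlations of 0.0228, 0.0309 and 0.0231, within the −0.0789 to 0.108 of the other pairs of a KO with a WT library. No label says that the numbers pair. With 3 pairs the smallest p is 0.25, so the block can make no call. The share of shared regions was higher in KO by 1.83 points at a −log10 q of at least 2 (exact permutation p = 0.0286). With 1 library left out it was higher by 0.554 to 1.52 points (exact permutation p of 0.133 or more). The percentile difference was −0.881 with equal lists, −0.141 with 50% cover, −2.74 with the block and −4.04 to 4.70 with 1 library left out. The width difference was −0.375 bp with 50% cover, −5.67 bp with the block and −6.67 to 12.3 bp with 1 library left out. Members minus regions outside genes gave −2.60 points at a −log10 q of at least 2 (exact permutation p = 0.0469), −3.01 with 50% cover (exact permutation p = 0.0313) and −1.78 (without KO4, exact permutation p = 0.0313) to −1.17 with 1 library left out. The cause of these shifts was not tested.

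Members called in all KO and no WT libraries numbered 9, 8 and 9 with a −log10 q of at least 2, equal lists and 50% cover, and 15 to 77 with 1 library left out. Those called in all WT and no KO libraries numbered 8, 10 and 11, and 15 to 70. Of the 14 and 14, 5 and 6 kept their separation at the stricter q, 3 and 7 with 50% cover, 14 and 14 when merging within 500 bp and 0 and 0 with equal lists. With 1 library left out, 13 or 14 in each direction kept it, which the looser criterion nearly sets in advance.

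Of 325 counts of members in the 25 ranked host genes, 274 stayed within 1.5 times and 51 did not, of which 22 came with equal lists and 20 with 3 to 5 callers, both of which leave fewer members, 5 without KO4, and 1 each without KO2 and without WT2. Etv1 kept 2 to 5 members, Cpe 1 to 5, Hmga2 0 to 4 and Macrod2 11 to 23. Averaging with equal weight over numbers of callers, added after the data were seen, gave −6.25 points against gene ends (exact permutation p = 0.0156), −0.957 against regions outside genes (exact permutation p = 0.156) and 5.25 for annotated starts (exact permutation p = 0.0313). Unknown depth and unequal lists limit every absence of a call.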
